A study of Caenorhabditis elegans with 2 samples.

Results

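The weaker ELT-3 sites described here are 2929 regions that ChIP-seq placed in both replicates of whole first-stage (L1) larvae of Caenorhabditis elegans, outside the strongest peaks of the experiment. They were chosen by measured values. Each is a row of the replicate 2 peak list that overlapped a row of the replicate 1 list by 1 bp or more. None overlapped a peak of the IDR set, the authors' combined list filtered by the irreproducible discovery rate (which scores how alike a peak ranks in each replicate), and none overlapped 1 of the 1014 pooled rows with the highest signal. Of the 7079 replicate 2 rows, 4253 overlapped a replicate 1 row. Of these, 1324 also met the IDR set or a strong pooled row and were left out, which gave the 2929 sites. They are called the weaker shared sites below. A further 2788 replicate 2 rows outside the strong peaks met no replicate 1 row and are called the replicate 2 rows not shared.

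The larvae were of strain OP75, genotype unc-119(ed3) III with the transgene wgIs75, which adds ELT-3 fused at its C terminus to GFP and FLAG. Both sexes were pooled. There is 1 group of 2 biological replicates, and every comparison is between kinds of sequence, not between conditions. The tagged protein comes from added gene copies, and whole animals were used, so a site cannot be assigned to a tissue. The authors' control was not analysed here. The lists give no read counts, so the read depth is unknown. The replicate 1 list held 17087 rows, the pooled list 30000 and the IDR set 1014. The replicate and pooled lists are labelled as peaks with background, so not every row need be a binding site. No measure here checks that any 1 of the weaker shared sites is bound.

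ELT-3 belongs to the GATA family of transcription factors and is expressed in the C. elegans epidermis, the cell layer that secretes the collagenous cuticle. GATA factors bind DNA through a zinc finger that recognises WGATAR, where W is A or T and R is A or G. Several GATA factors act together or in sequence in the worm epidermis and intestine, and they read closely similar sites, so a WGATAR site does not name the factor that uses it.

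Below are the bases from 50 bp before to 50 bp after the summit of 7 weaker shared sites, to show what such a site looks like with and without the ELT-3 family's letters. They are, by the sum of their ranks in both replicates, the first 5 sites with a WGATAR site and the first 2 without, among those outside exons on chromosomes II, III, IV, V and X. Each is the plus strand of the RefSeq WBcel235 genome (ce11), named by the gene with the nearest 5′ end. Capitals mark WGATAR on either strand (TTATCA is TGATAA read on the other strand).
nhr-31, chrIV:8027485-8027585: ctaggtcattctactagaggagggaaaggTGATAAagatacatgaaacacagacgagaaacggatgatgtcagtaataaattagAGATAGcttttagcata
W04D12.1, chrIII:5839331-5839431: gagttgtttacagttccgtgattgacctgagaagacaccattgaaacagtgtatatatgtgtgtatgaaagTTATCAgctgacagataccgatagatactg
R11G10.4, chrV:13504937-13505037: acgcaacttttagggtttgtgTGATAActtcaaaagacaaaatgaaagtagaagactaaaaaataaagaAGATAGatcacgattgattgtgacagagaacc
kin-20, chrX:15276408-15276508: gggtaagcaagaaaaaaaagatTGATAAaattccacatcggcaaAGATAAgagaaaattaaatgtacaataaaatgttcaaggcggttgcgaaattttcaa
col-144, chrV:9160717-9160817: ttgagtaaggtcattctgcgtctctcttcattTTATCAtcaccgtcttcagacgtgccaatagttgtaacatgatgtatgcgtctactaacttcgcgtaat
fkh-7, chrIV:5591331-5591431: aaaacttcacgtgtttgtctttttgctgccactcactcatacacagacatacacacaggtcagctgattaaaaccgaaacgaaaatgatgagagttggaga
toh-1, chrIII:3811641-3811741: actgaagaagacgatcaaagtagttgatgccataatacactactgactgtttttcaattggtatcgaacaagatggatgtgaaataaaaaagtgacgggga

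The nhr-31, R11G10.4 and kin-20 windows each held 2 sites. In nhr-31 the first bases of the sites lay 21 bp before and 34 bp after the summit. In kin-20 they lay 28 and 6 bp before it. The col-144 site began 18 bp before the summit. The fkh-7 and toh-1 windows held no WGATAR, although their signals, 39.2 and 34.4 in replicate 2 and 26.97 and 26.7 in replicate 1, were of the same order as those of the windows that did. The col-144 window also carries ctgcgtctc, a run of letters that returns in the comparison of summits with flanks.

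All weaker shared sites were 284 bp wide. Their signal, the authors' own value per row, ran in replicate 2 from 15.5 to 49.04 with a median of 21.1, and in replicate 1 from 7.605 to 38.01 with a median of 11.97. In replicate 2 they took ranks 538 to 7077 of 7079. The 1324 strong rows found in both replicates had a median replicate 2 signal of 44.7, and the replicate 2 rows not shared had 17.5. At the limit of the pooled list, the member with the highest pooled signal (I, 4299572 to 4299855, pooled signal 59.1) lay in an intron of scpl-3. Of the rows left out through the pooled list alone, the one next to the limit (II, 14018309 to 14018592) had a pooled signal of 59.2.

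The 2 replicates ordered the weaker shared sites only loosely. Spearman's rho between their signals was 0.34 over the 2929 sites and 0.55 over the 1324 strong rows, as a description, since all points share the same 2 libraries and the choice of members cuts the range of both signals. The replicates' summits lay a median of 37 bp apart at the weaker shared sites and 21 bp at the strong rows. They fell within 50 bp of each other at 1730 weaker shared sites (59.1%) and at 1026 strong rows (77.5%). Sites are also not all separate. Some 53 overlapped another member, 68 overlapped more than 1 replicate 1 row, and 224 (7.65%) had a strong summit within 1000 bp. The tests over sites below treat sites as independent, and their p-values measure the spread over sites, not between larvae.

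**Figure D1:**
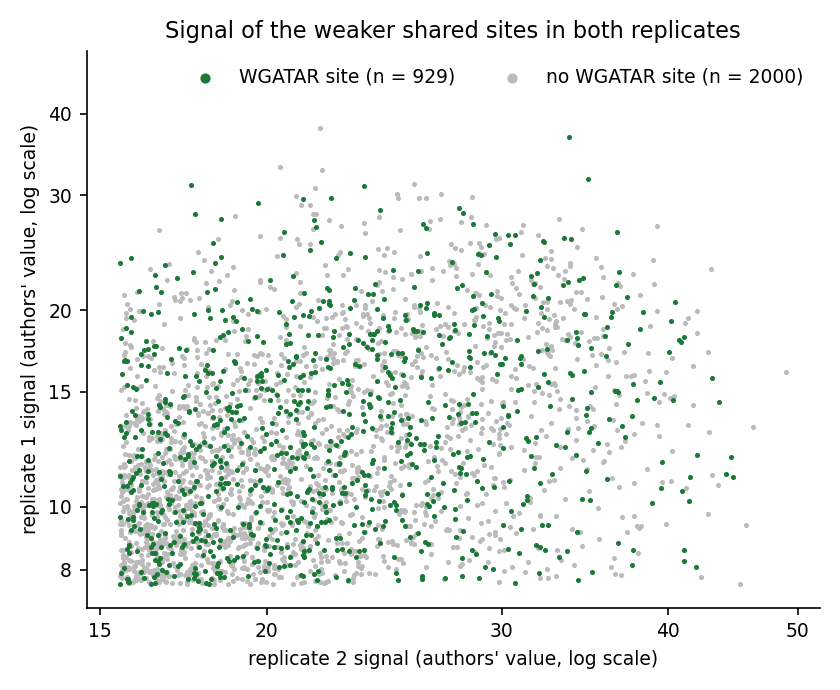
Signal of the 2929 weaker shared sites in replicate 2 (x axis) and replicate 1 (y axis), both the authors' values on log scales, with 1 point per site. Green points are the 929 sites with WGATAR within 50 bp of the replicate 2 summit and grey points the 2000 without; green and grey points overlap over the whole range, and the cloud is loose (Spearman's rho 0.34).

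WGATAR was more common at the weaker shared sites than beside them. The search covered both strands, within 50 bp of the replicate 2 summit and in an equally wide window 500 bp away. Of the 2929 sites, 929 had it at the summit (31.7%, 95% Wilson interval 30.1 to 33.4) and 618 in the flank (21.1%, 19.7 to 22.6), a difference of 10.6 percentage points (exact McNemar test, p = 1.27e-20). Of all 992797 windows of that width that tile the nuclear genome, 19.8% held it. Put the other way, 2000 of the weaker shared sites had no WGATAR within 50 bp of the summit.

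Each of the 4 six-letter forms was more common at summits than in flanks in the exact McNemar test. TGATAA stood at 17.9% of summits (523) and 10% of flanks (293) (exact McNemar p = 4.80e-18), AGATAG at 6.42% and 2.94% (p = 1.58e-10), TGATAG at 5.39% and 3.58% (p = 9.45e-04), and AGATAA at 8.71% and 6.73% (p = 0.00535). The same letters in other orders were not raised. WAGTAR was less common at summits than in flanks (13.8% and 17.7%, exact McNemar p = 3.91e-05), WTAGAR stood at 22.4% and 24.2% (p = 0.109) and WATGAR at 28.5% and 29.7% (p = 0.329). Summit windows were richer in G and C, with a mean of 40.1% against 35.4% in flanks, and the part of this in the WGATAR difference was not tested beyond the reordered letters.

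The weaker shared sites stood between the IDR set and the replicate 2 rows not shared. Their share of 31.7% was below the 52.6% of the IDR set (49.5 to 55.6; 533 of 1014; Fisher's exact test with Benjamini-Hochberg adjustment over 12 tests, adjusted p = 1.51e-30). It was above the 24.1% of the replicate 2 rows not shared (22.6 to 25.8; 673 of 2788; adjusted p = 3.79e-10 by Fisher's exact test). The windows of the IDR set were centred on summits of that combined list, and those of the other sets on replicate 2 summits. The part of this in the difference from the IDR set was not tested. Windows with 2 or more sites made up 9.35% of the weaker shared sites, 5.45% of the rows not shared and 22.9% of the IDR set. In the 25 bp after the summit the weaker shared sites had 4.96 WGATAR sites per kb, the rows not shared 3.70 and the IDR set 9.19. In the 25 bp that lay 475 to 500 bp after the summit, these sets had 2.02, 2.42 and 2.21. At the same distance before the summit they had 2.39, 2.44 and 2.64.

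**Figure D2:**
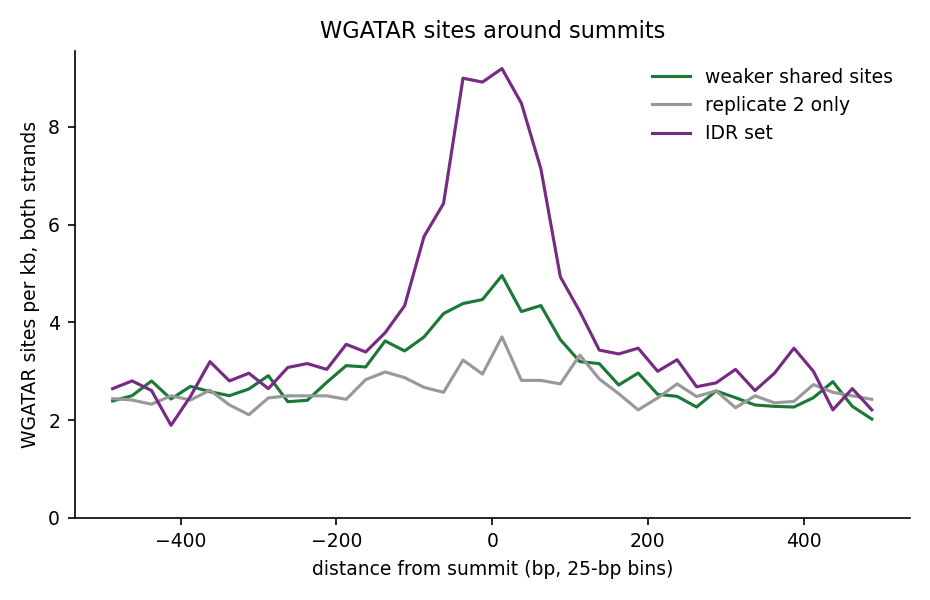
WGATAR sites per kb on both strands (y axis) by distance from the summit in bins of 25 bp (x axis), for the weaker shared sites (green, 2929), the replicate 2 rows not shared (grey, 2788) and the IDR set (purple, 1014). The green line rises towards the summit to 4.96 sites per kb, between the grey (3.70) and the purple line (9.19). In the outermost bins on both sides, all lines lie between 2.02 and 2.64 sites per kb.

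Signal was higher at the weaker shared sites than at the rows not shared, so both were also compared at like signal. Within the members' own quintiles of replicate 2 signal (5 classes of equal size), the share with WGATAR was above that of the rows not shared in each quintile. In the highest quintile it was 33.8% against 28.6% of 112 rows not shared (adjusted p = 0.389, Fisher's exact test), and in the second 34.6% against 29.3% of 191 (adjusted p = 0.242, Fisher's exact test). In the third it was 35.6% against 24.2% of 466 (adjusted p = 1.79e-04, Fisher's exact test), and in the fourth 28.5% against 23.5% of 782 (adjusted p = 0.0582, Fisher's exact test). In the lowest it was 26.1% against 23.3% of 1237 (adjusted p = 0.242, Fisher's exact test). Of the 5 differences, the third alone thus passed the threshold of 0.05, each adjusted in the place of the difference over all sites among the 12 tests.

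Down the ranks of replicate 2, the share of weaker shared sites with WGATAR held over the first 3 quintiles and was lower in the last 2. It was 33.8%, 34.6%, 35.6%, 28.5% and 26.1% from the highest to the lowest quintile. The highest quintile exceeded the lowest by 7.68 percentage points (Fisher's exact test, p = 0.00498). Flanks stayed between 19.8% and 22.2% in all quintiles. In the lowest quintile, with signals of 15.5 to 17.2, the 26.1% at summits did not differ from the 21.8% in flanks beyond the threshold (exact McNemar test, p = 0.0902). In the other 4 quintiles it did, with exact McNemar p of 0.00475 or lower.

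Ranking by replicate 1 gave the same direction with an earlier step. The shares were 36.5%, 36.3%, 29.9%, 29.01% and 26.8%, and the highest quintile exceeded the lowest by 9.73 percentage points (Fisher's exact test, p = 4.29e-04). Here the lowest quintile too was above its flanks, at 26.8% and 20.3% (exact McNemar test, p = 0.0124).

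**Figure D3:**
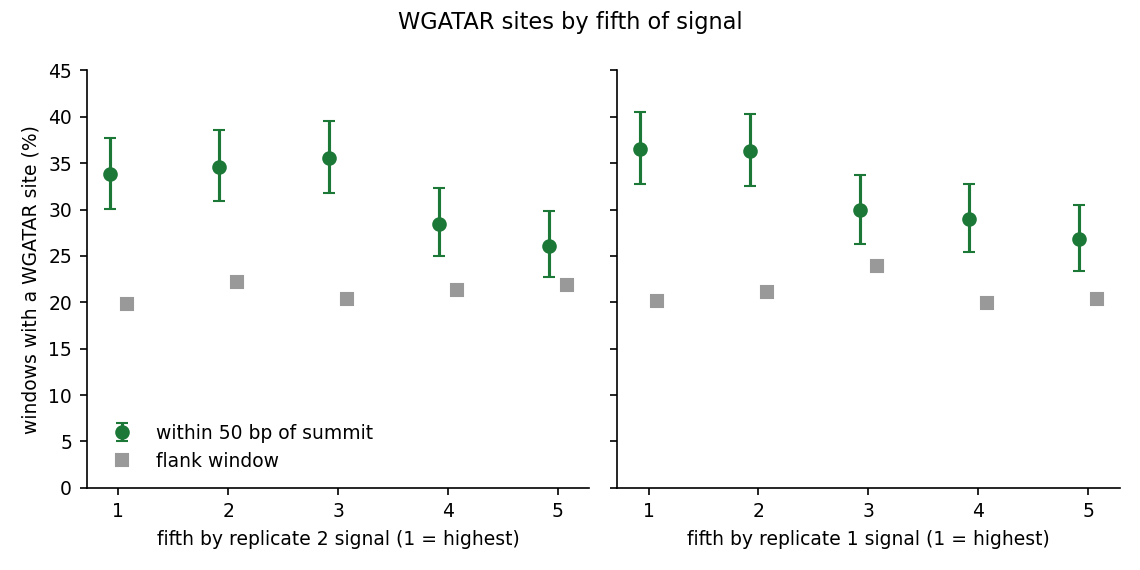
Share of windows with a WGATAR site (y axis, %) in quintiles of the weaker shared sites by replicate 2 signal (left) and replicate 1 signal (right), highest quintile first. Green points are summit windows with 95% Wilson intervals and grey squares the paired flanks; summits fall to 26.1% and 26.8% in the lowest quintiles while flanks stay between 19.8% and 23.9%.

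Sites whose replicate summits lay far apart held WGATAR slightly less often. The share was 32.5% of 1183 sites with summits within 25 bp of each other and 27.9% of 642 sites with summits over 100 bp apart (Fisher's exact test, p = 0.0438). The share did not fall steadily with distance: it was 31.3% at 0 to 10 bp, 34.4% at 11 to 25 bp, 34.9% at 26 to 50 bp, 31.2% at 51 to 100 bp, 29.3% to 150 bp and 26.5% beyond. Windows of 25 or 100 bp on each side and the replicate 1 summit left this difference short of the threshold (Fisher's exact p of 0.059, 0.281 and 0.0811). Signal moves with it: the median replicate 2 signal was 21.3 where summits lay within 10 bp and 18.9 where they lay over 150 bp apart, and its part in the difference was not tested.

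Beyond GATA, the letters around the summits differed widely from those of the flanks. Hexamers were counted together with their reverse complements. Of 2080 such pairs, 427 (20.5%) were more common at summits and 258 (12.4%) less common at an adjusted p under 0.05 (exact McNemar test, Benjamini-Hochberg). Among the 10 with the lowest p, 7 were runs of A and T, all rarer at summits, led by AAAATT at 23.3% of summits and 42.5% of flanks (exact McNemar test, adjusted p = 9.44e-50). The other 3 were GA repeats or a close relative. GAGAGA stood at 16.4% of summits and 6.62% of flanks (adjusted p = 1.91e-29, exact McNemar), AGAGAC at 11.5% and 3.62% (adjusted p = 1.60e-28, exact McNemar), and AGAGAG at 13.2% and 4.88% (adjusted p = 1.89e-27, exact McNemar). The next pair were named after their values were seen. The GATA hexamer CTTATC stood at 11.4% of summits and 4.40% of flanks. ACGCAG stood at 7.27% of summits and 2.08% of flanks.

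Several of these hexamers overlap in the longer run CTGCGTCTC, which was picked after these values were seen and is given as counts only. It stood at 105 summits of weaker shared sites (3.58%, 2.97 to 4.32) and 24 of their flanks (0.819%). It stood at 5.82% of IDR summits, 1.72% of summits of rows not shared and 0.39% of genome windows. By quintiles of replicate 2 signal its share was 6.31%, 4.61%, 2.74%, 2.73% and 1.54%. Of the 105 sites, 77 (73.3%) lay in a promoter window of a protein-coding gene, against 47.6% of all weaker shared sites. Such a window reaches 1500 bp before and 500 bp past the 5′ end. Of the summits with CTGCGTCTC in the other sets, 60.4% of those of rows not shared and 49.15% of those of the IDR set lay in one. Of the 105 sites, 18.1% had WGATAR, against 32.2% of the sites without CTGCGTCTC. Which protein, if any, reads these letters cannot be told from the peak lists.

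Over all sites, the weaker shared sites lay inside exons more often than the IDR set and less often than the rows not shared, and near gene starts more often than the rows not shared. A promoter window held 1395 of them (47.6%, 45.8 to 49.4), against 46.1% of IDR summits (43.01 to 49.1; adjusted p = 0.438 by Fisher's exact test), 38.9% of the rows not shared (adjusted p = 6.95e-11, Fisher's exact test) and 33.5% of the genome. The median distance to the nearest protein-coding 5′ end was 1176 bp, against 1287 bp for the IDR set and 1462 bp for the rows not shared, and 58.9% of the weaker shared sites lay upstream of it.

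Intergenic summits made up 56.8% of the weaker shared sites, 62.9% of the IDR set (adjusted p = 0.00115, Fisher's exact test), 42.6% of the rows not shared (adjusted p = 3.18e-26, Fisher's exact test) and 37.3% of the genome. Exonic summits made up 16.97%, against 6.51% of the IDR set (adjusted p = 6.74e-18, Fisher's exact test), 28.8% of the rows not shared (adjusted p = 4.85e-26, Fisher's exact test) and 29.5% of the genome. Intronic summits made up 26.2%, against 30.6% of the IDR set (adjusted p = 0.0118 by Fisher's exact test) and 28.6% of the rows not shared (adjusted p = 0.0582, Fisher's exact test). The exonic summits included 216 in untranslated regions (7.38% of the weaker shared sites). Exonic and intergenic shares moved with signal: from the highest to the lowest quintile of replicate 2 signal, exonic summits made up 10.1%, 13.1%, 15.7%, 21.5% and 24.4%, and intergenic summits 65.4%, 61.8%, 58.8%, 50% and 48.12%. Over the sites at or above the median replicate 2 signal, the intergenic share was 61.98% and did not differ from the IDR set beyond the threshold (adjusted p = 0.702 by Fisher's exact test), and the promoter share of 51.1% was above it (adjusted p = 0.0189 by Fisher's exact test).

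At like signal, the exonic and intergenic differences from the rows not shared passed the threshold in the 3 lower quintiles, and the promoter difference turned round in the highest. This comparison was added after seeing the data. In the highest quintile, with 112 rows not shared, 51.4% of the weaker shared sites lay in a promoter window against 65.2%, the opposite direction (adjusted p = 0.0118 by Fisher's exact test). In the next quintiles, down to the lowest, the promoter shares were 52.6% against 48.17%, 47.7% against 41.2%, 45.9% against 36.3% and 40.6% against 35.8%, of which the fourth quintile alone passed the threshold (adjusted p = 7.37e-04 by Fisher's exact test). Exonic summits made up 10.1% against 8.04% in the highest quintile (adjusted p = 0.659 by Fisher's exact test) and 13.1% against 16.8% in the second (adjusted p = 0.276 by Fisher's exact test). In the third, the fourth and the lowest they made up 15.7% against 26.8%, 21.5% against 32.2% and 24.4% against 31.1%, each past the threshold (adjusted p of 0.00577 or lower by Fisher's exact test). Intergenic summits made up 65.4% against 72.3% in the highest quintile (adjusted p = 0.21 by Fisher's exact test), and were more frequent at the weaker shared sites in the third, the fourth and the lowest (adjusted p of 0.00239 or lower by Fisher's exact test).

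The GATA content differed with location. WGATAR stood at 33.4% of the 1664 intergenic summits (31.2 to 35.7; flanks 20.4%), 32.4% of the 768 intronic summits (29.2 to 35.8; flanks 23.2%) and 24.95% of the 497 exonic summits (21.4 to 28.9; flanks 20.3%). In promoter windows it was 31.2%, and outside them 32.2%. These splits were chosen after values were seen and carry no test.

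The X chromosome held 665 weaker shared sites, 22.7% against its 17.7% of genome length (two-sided exact binomial test, p = 4.64e-12). That share did not differ beyond the threshold from the 22.9% of the IDR set (20.4 to 25.6; adjusted p = 0.931 by Fisher's exact test) or the 21.3% of the rows not shared (19.8 to 22.8; adjusted p = 0.242 by Fisher's exact test). Per Mb, X held 37.5 sites, chromosome I 35.96, chromosome II 29.1, chromosome III 27.9, chromosome V 23.3 and chromosome IV 23.2. Chromosome I thus lay next to X, and the other autosomes lower. WGATAR stood at 34.3% of X summits (flanks 24.2%) and 30.96% of autosomal summits (flanks 20.2%).

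**Figure D4:**
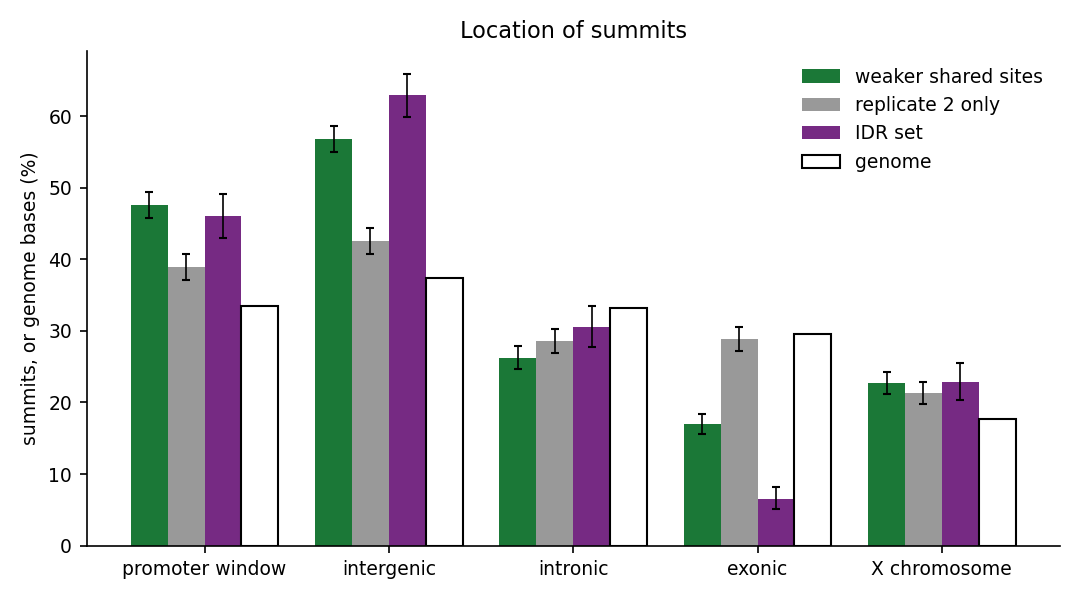
Share of summits (y axis, %) in promoter windows, in intergenic, intronic and exonic sequence, and on X, for the weaker shared sites (green), the replicate 2 rows not shared (grey, labelled replicate 2 only), the IDR set (purple) and the genome (white). Error bars are 95% Wilson intervals over summits; the exonic share of the weaker shared sites, 16.97%, lies between the IDR set at 6.51% and the rows not shared at 28.8%.

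The 20 weaker shared sites ranked highest in both replicates together had signals of 33.1 to 43.05 in replicate 2 and 19.98 to 36.9 in replicate 1. Of these, 11 were intergenic, 7 intronic and 2 exonic. A promoter window held 8. WGATAR stood at 7, 6 had a strong summit within 1000 bp, and 6 had replicate summits over 100 bp apart. Over all 2929 sites, 47.6% lay in a promoter window, 31.7% had WGATAR and 7.65% had a strong summit within 1000 bp. Replicate summits lay over 100 bp apart at 642 of the 2929. Of the genes nearest to the 20 sites, 2 encode cuticle collagens. The col-103 site (IV, 763658 to 763941) lay 122 bp upstream of the 5′ end, with a signal of 38.99 in replicate 2 and 21.98 in replicate 1. The col-144 site (V, 9160625 to 9160908) lay 125 bp upstream, with 36.8 in replicate 2 and 22.9 in replicate 1. The rule that picked these 20 fixes their high ranks.

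Other genes near the top 20 included regulators and secreted enzymes. The nuclear hormone receptor genes nhr-31 and nhr-22 held a site in an intron, 1978 and 883 bp downstream of the 5′ end. The nhr-31 site had signals of 34.8 in replicate 2 and 31.8 in replicate 1, and the nhr-22 site 37.6 and 22.8. The forkhead factor gene fkh-7 held an intronic site 6697 bp into the gene (39.2 in replicate 2, 26.97 in replicate 1). The kin-20 site (33.4 in replicate 2, 25.9 in replicate 1), in an intron of a casein kinase I gene of the heterochronic network, carried 2 WGATAR sites. The toh-1 site, 2661 bp upstream of a zinc metalloproteinase gene, carried none, nor did that of the beta spectrin gene unc-70, 4376 bp upstream. The try-6 site lay 3 bp upstream of a predicted serine protease gene, in an exon of another gene, with 33.7 in replicate 2 and 36.9 in replicate 1. The small heat shock gene hsp-25 had a site 936 bp upstream, with 42.01 in replicate 2 and 19.98 in replicate 1. The remaining nearest genes were mstr-1, W04D12.1, kin-14, Y73F8A.1159, R11G10.4, scpl-3, K04B12.2, cutl-21, snt-1 and ttr-2.

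Taken by genes, 1709 of 19973 protein-coding genes (8.56%) had a weaker shared site in the promoter window, 93 of them more than 1. Of these genes, 78 also had an IDR summit there, which is 4.56% of the genes with a weaker shared site and 13.2% of the 590 genes with an IDR summit. A site in several promoter windows counts for each gene, as 368 sites did. The gene lists below were read as counts beside the 8.56% over all protein-coding genes, with no test, and the share of a list near that background is no result about it.

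Genes of the translation machinery were among the lists furthest above the background. Of 79 ribosomal protein genes, 17 had a weaker shared site in the window (21.5%, 13.9 to 31.8). An IDR summit lay in the window of 22 of the 79 (27.8%), against 2.95% of all genes. The rpl-41.2 site lay 262 bp upstream (43.6 in replicate 2, 10.8 in replicate 1). A single site between rpl-39 and rps-30 had 41.2 in replicate 2 and 10.7 in replicate 1. The 15 sites in these promoter windows were ranked high in replicate 2, with a median signal of 27.3 and a median rank of 638 among the members, and below the middle in replicate 1, with 10.98 and rank 1734. WGATAR stood at 1 of the 15 and CTGCGTCTC at 2. Sites of the UDP-glucuronosyltransferase and cytochrome P450 genes were also ranked higher in replicate 2 (median ranks 580 and 1318) than in replicate 1 (1269 and 2096). Sites of the nuclear hormone receptor genes went the other way (1749 in replicate 2, 1326 in replicate 1), as did, slightly, those of the other cuticle collagens (745 and 722). Of 70 translation factor and tRNA synthetase genes, 18 had a site (25.7%, 16.9 to 37.03). The first 3 by signal were the initiation factor 3 subunit genes eif-3.B (42.03 in replicate 2, 12.01 in replicate 1), eif-3.G (34.5 and 8.71) and eif-3.J (33.2 and 11.5). WGATAR stood at 3 of the 19 sites there (15.8%, 5.52 to 37.6), against 31.7% of the 1361 sites in other promoter windows. The interval includes that 31.7%, and the flanks held WGATAR at 10.5% and 20.6%. This split carries no test. With a promoter window of 500 bp upstream to 250 bp downstream, 13 ribosomal protein genes (16.5%) and 14 translation factor and synthetase genes (20%) had a site, against 5.03% of all genes.

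Genes that link the epidermis to muscle and to its neighbours also lay above the background, depending on the window. Of 15 hemidesmosome and junction genes, 5 had a site (33.3%, 15.2 to 58.3). The mup-4 gene, for a transmembrane protein of the hemidesmosome-like fibrous organelles, had a site 1120 bp upstream with 1 WGATAR site (24.8 in replicate 2, 13.4 in replicate 1). The intermediate filament gene ifa-3 had one 1326 bp upstream (23.3 and 16.8). The summit of the ifa-3 site also lay 28 bp from a glutamate tRNA gene, where placement of reads is uncertain. The junction gene dlg-1 had a site 299 bp downstream, in an intron (24.4 and 21.4). WGATAR also stood at the vab-19 site, but not at the dlg-1, ifa-3 and hmp-1 sites. With a promoter window of 500 bp upstream to 250 bp downstream, none of the 15 had a site, against 5.03% of all genes.

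Genes for the cuticle gave mixed counts, near the background in the large list and above it, on 2 genes each, in 2 small lists. Of 6 furrow collagen genes, 2 had a site, dpy-9 at 139 bp upstream with 1 WGATAR site (24.6 in replicate 2, 16.1 in replicate 1) and dpy-2 at 499 bp upstream with none (16.03 and 8.23). Of 169 other cuticle collagen genes, 17 had one (10.1%, 6.38 to 15.5). Of 9 collagen processing genes, 2 had one, pdi-2 at 26 bp upstream (42.9 and 13.02) and dpy-18 at 692 bp upstream (22.2 and 15.1), which encode the 2 kinds of subunit of the prolyl hydroxylase that modifies collagen. With so few genes the intervals are wide, 9.68 to 70% for furrow collagens and 6.32 to 54.7% for collagen processing. The second includes the 8.56% over all genes. With the narrower window of 500 and 250 bp, 2 furrow collagen genes (33.3%) and 1 collagen processing gene (11.1%) had a site, against 5.03% of all genes. Of 41 zona pellucida domain genes of the apical matrix, 1 had a site (cutl-12), and none of 16 molting genes did. With a window of 3000 bp upstream to 1000 bp downstream, 4 molting genes had one (25%), against 12.7% of all genes. Of 22 epidermal antimicrobial peptide genes, 3 had one, among them nlp-29, induced by fungal infection in the epidermis, at 137 bp upstream (22.4 in replicate 2, 17.8 in replicate 1, no WGATAR).

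Signalling genes were held by several small lists. Of 18 TGF-beta pathway genes, 5 had a site (27.8%, 12.5 to 50.9). They included the Smad genes sma-2 (28.7 in replicate 2, 8.54 in replicate 1) and sma-3 (19.3 and 11.5) and the type I receptor gene sma-6 (18.6 and 8.85). These act in the body size pathway, which works in the epidermis. Of 16 Wnt pathway genes, 4 had one (25%, 10.2 to 49.5), among them the Frizzled gene lin-17 (34.5 and 11.8), the TCF gene pop-1 (23.8 and 10.6) and the beta-catenin gene bar-1, with 2 WGATAR sites (19.1 and 12.5). The lin-17, pop-1 and cwn-1 sites held no WGATAR. None of the 16 Wnt genes had an IDR summit in the window, which 2.95% of all genes had. With the narrower window of 500 and 250 bp, 4 TGF-beta genes (22.2%) and 1 Wnt gene (6.25%) had a site, against 5.03% of all genes. Of 14 heterochronic genes, 3 had a site, namely lin-14 (24.7 in replicate 2, 16.04 in replicate 1), puf-9 (18.4 and 15.3) and blmp-1 (16.5 and 10.1).

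Metabolic and stress lists lay above the 8.56% over all genes, apart from oxidative stress, which lay near it. Many of these lists are small and their intervals wide. Above it too were mitochondrial respiratory chain genes (9 of 51, 17.6%) and fatty acid and short-chain dehydrogenase genes (7 of 46, 15.2%). So were sulfur amino acid and ornithine metabolism genes (3 of 12, 25%) and cytochrome P450 genes (10 of 74, 13.5%). Of 67 UDP-glucuronosyltransferase genes, whose enzymes attach sugars to small molecules, 14 had a site (20.9%, 12.9 to 32.1), led by ugt-26 (41.1 in replicate 2, 8.58 in replicate 1), ugt-20 (35.5 and 8.94) and ugt-34 (32.2 and 20.6). Genes of this family can be near-identical, and how reads at such copies were placed is not given in the sources used here. Of 21 vacuolar proton ATPase genes, 4 had one, among them vha-13 (31.1 and 10.1) and vha-15 (31.01 and 17.04). Of 12 genes of the osmotic and glycerol response, 3 had one, among them gpdh-1, which makes glycerol 3-phosphate, at 99 bp upstream with 2 WGATAR sites (20.8 in replicate 2, 13.9 in replicate 1). The sites of osm-11 and wnk-1 held no WGATAR. Of 12 unfolded protein response genes, 2 had a site, the transcription factor gene xbp-1 (33.7 and 23.4) and the kinase gene pek-1 (31.7 and 14.5). Of 14 genes of tyrosine and tryptophan breakdown, 2 had one, haao-1 and tatn-1, and of 15 oxidative stress genes 1 did (6.67%), prdx-2. In the narrower window of 500 and 250 bp, 13 UDP-glucuronosyltransferase genes (19.4%) and 2 vacuolar proton ATPase genes (9.52%) had one. The osmotic and the unfolded protein response lists had 2 each (16.7%). Tyrosine and tryptophan breakdown had 1 (7.14%) and oxidative stress 1 (6.67%), against 5.03% of all genes.

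Marker genes of other cells had few sites, and so did some epidermal lists. None of 21 intestine, 19 body wall muscle, 14 pharynx and 40 germ line marker genes had a weaker shared site in the promoter window. Of 18 neuron marker genes, 1 did (snb-1). None of 11 genes of the GATA family, which acts in both epidermis and intestine, had one. Neither did any of 9 seam cell and cell fusion genes. Of 15 epidermal transcription factor genes, 1 had one (6.67%), and of 86 hedgehog-related and patched-related genes, 3 did (3.49%). With the window of 3000 and 1000 bp, 1 GATA factor, 1 pharynx and 2 germ line genes had one, and still none of the intestine and muscle genes. In that window 4 epidermal transcription factor genes (26.7%) and 11 hedgehog-related and patched-related genes (12.8%) had one, against 12.7% of all genes. The seam cell and cell fusion list still had none. Chemoreceptor genes stood at 18 of 1311 (1.37%, 0.87 to 2.16) and histone genes at 1 of 72 (1.39%). Nuclear hormone receptor genes, at 28 of 274 (10.2%), were near the background. With lists of this size, intervals are wide: the upper bound for none of 21 intestine genes was 15.5%, above the 8.56% over all genes.

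**Figure D5:**
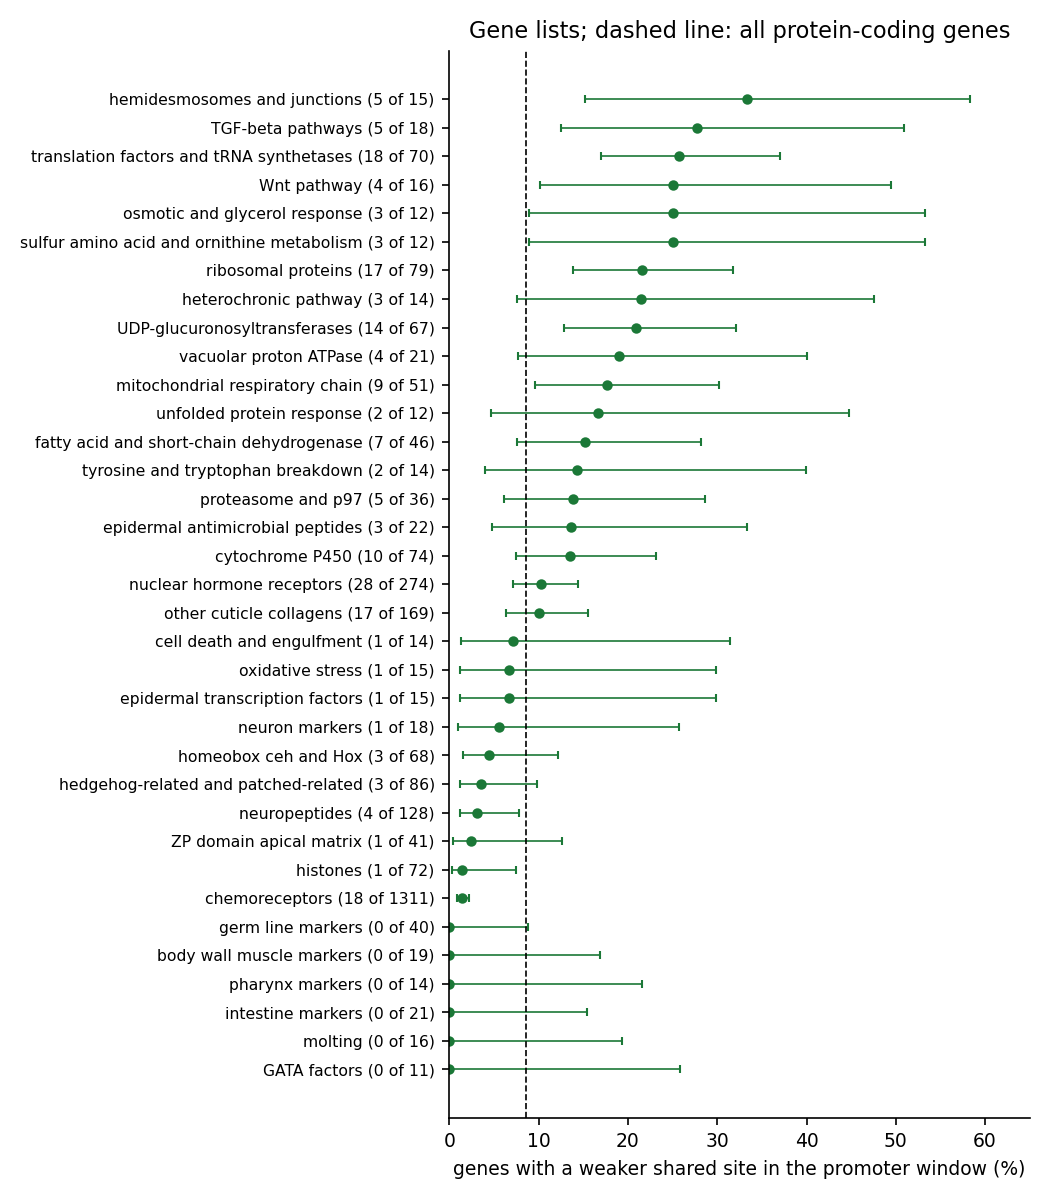
Share of the genes of each list with a weaker shared site in the promoter window (x axis, %), for lists of 10 or more genes, with the count in brackets and 95% Wilson intervals over genes. The dashed line is the 8.56% over all 19973 protein-coding genes; translation genes, hemidesmosome genes and UDP-glucuronosyltransferase genes lie to its right and chemoreceptor genes, at 1.37%, to its left.

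At elt-3 itself, a weaker shared site (X, 13940364 to 13940647) lay in an exon, 5632 bp downstream of the 5′ end and 907 bp from a strong summit, with a signal of 41.7 in replicate 2, 16.45 in replicate 1 and no WGATAR. Its signal could include reads from the added elt-3 copies of the transgene, whose part was not tested. Another 3 weaker shared sites lay within 20 kb of the 5′ end, nearest to ekl-5, meg-2 and meg-1, with replicate 2 signals of 21.4, 18.9 and 16.7. No weaker shared site lay within 20 kb of unc-119, the marker gene of the transgene.

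Some loci gathered many sites, named here after their counts were seen. Of the 2381 genes that were nearest to a site, 1969 were nearest to 1 and 322 to 2. F57G12.1 was nearest to 8, from 3776 bp downstream to 15734 bp upstream of its 5′ end, with replicate 2 signals of 18.5 to 26.3. The stress phosphatase gene vhp-1 and the tyrosine aminotransferase gene tatn-1 were each nearest to 7. The strongest at tatn-1 had 42.85 in replicate 2 and 17.3 in replicate 1 and lay 3930 bp upstream. Rows overlap at the tatn-1 locus, and 4 of its 7 sites share their replicate 1 row with another. At vhp-1, 2 of the 7 overlap and share a replicate 1 row. The sites at tatn-1 and vhp-1 are thus not all separate. The chromatin gene egl-27 was nearest to 6. Of the 11 genes nearest to 5 or more sites, 7 were also nearest to an IDR summit, against 318 of all 2381 (13.4%). The length of sequence to which each gene is nearest was not taken into account, so the 2 shares are not a like comparison.

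A larger share of the weaker shared sites than of the rows not shared or the IDR set lay near a tRNA gene. This comparison was chosen after its values were seen and is given as counts. Other lists of peaks were not set beside them. A tRNA gene lay within 250 bp of 97 of them (3.31%, 2.72 to 4.02), against 1.47% of the rows not shared (1.09 to 1.99) and 0.592% of the IDR set (0.271 to 1.28). These sites met 107 of 612 tRNA genes. In 36 of the 97 the summit lay inside the tRNA gene, 44 lay on X (45.4%, as 45.1% of the tRNA genes do), and 15 (15.5%, 9.6 to 23.96) had WGATAR. In the flanks of these 97 sites WGATAR stood at 21.65%, so the excess at summits seen over all sites was absent here, without a test. The 97 sites were spread over tRNAs for many amino acids, with 11 sites at glutamate and 10 at arginine tRNA genes. These counts were not set against the number of tRNA genes of each kind. The site with the highest ranks (X, 14015835 to 14016118), with its summit in a glutamate tRNA gene, had 36.4 in replicate 2 and 20.5 in replicate 1. Many tRNA genes are near-identical copies, so placement of reads there is uncertain.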

How the data were processed

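ChIP-seq against ELT-3 in L1 larvae was read from the peak lists of 2 replicates, their pooled list and the IDR set on ce11, with the ce10 lists as an alternative. The lists are narrowPeak without headers. The authors deposited a signal value per row, on a scale of its own in each list, and signals were compared within a list only. A q-value score per row, as deposited by the authors, served for 1 alternative ranking. Names of the aligner, peak caller and limits were not given in the sources used here. Read depth is unknown, and intervals cover counting error over sites or genes only.

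The members, gene lists, tests and most alternatives were chosen with earlier results of these data known. Sequence came from the RefSeq WBcel235 genome (ce11) and genes from Ensembl release 115. Coordinates are 1-based. Where a site met several replicate 1 rows, the row with the closest summit was used. Flanks lay on a random side (seed 7). Exonic, intronic and intergenic sequence were defined as in the annotation of protein-coding genes, and a promoter window counts for every gene it belongs to. Shares of sets were compared with Fisher's exact test (12 tests, Benjamini-Hochberg; an alternative's p took the place of its own test's p in that family), summits with flanks by an exact McNemar test, both two-sided. Genes named were those nearest to the 20 sites with the lowest sum of ranks in both replicates, up to 3 genes per list by replicate 2 signal, elt-3 and unc-119, and the 10 hexamers with the lowest p. The splits by location, CTGCGTCTC, tRNA genes and loci with many sites were chosen after values were seen.

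Python 3.11.15, numpy 2.4.6, scipy 1.17.1, pandas 2.3.3 and matplotlib 3.10.9 were used. The motif and set tests were tested on simulated data.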

Additional observations from a re-analysis of the deposited data

How the results depend on the processing

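Of the alternatives run, 94 kept the direction and side of the threshold (for a count, a change within 1.5 times), 15 lost the threshold, 1 gained it, 9 changed sign and 5 moved a count further. The number of weaker shared sites stayed within 1.5 times for the other overlaps, other strong sets and the ce10 lists. With 1 replicate left out there is no overlap to ask for, and the number was 5717 to 15682. Genes with a site numbered 1004 with a promoter window of 500 and 250 bp, and 2885 to 6214 with 1 replicate left out. The control letters WAGTAR, WTAGAR and WATGAR gave summit minus flank differences of -3.93, -1.84 and -1.195 percentage points where WGATAR gave 10.6. Leaving out sites near tRNA genes, added after seeing the data, did not change that call. Against the rows not shared, the WGATAR difference was 5.22 points in the highest quintile of signal, 5.32 in the second, 4.97 in the fourth and 2.83 in the lowest, short of the threshold. The difference by distance between summits was 3.55 points with windows of 25 bp, 2.66 with 100 bp and 4.05 at the replicate 1 summit. For sites at or above the median signal, members minus the IDR set was 5.07 points in promoter windows, now past the threshold, and -0.94 intergenic, no longer past it. Without 1 replicate, members minus the IDR set was -8.05 to -2.69 points in promoter windows and -3.18 to -1.003 for introns. By quintile of signal, added after seeing the data, members minus rows not shared turned round in the highest quintile, to -13.8 points in promoter windows, -6.96 intergenic, 4.93 intronic and 2.03 exonic. It lost the threshold in the second at 4.39 in promoter windows, 6.80 intergenic and -3.61 exonic, and in the third and lowest at 6.49 and 4.80 in promoter windows. The cause of these changes was not tested. Location without 1 replicate was not set against the rows not shared, since they are replicate 2 rows.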
